A study of Mus musculus with 2 samples.

Results

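C1q-high macrophages were defined among single lung cells by their own transcripts, and 133 of the 1344 cells in the table met the definition (9.90%, exact binomial 95% interval 8.35 to 11.6%). A cell was taken as a C1q-high macrophage when the mean natural-log value of C1qa, C1qb and C1qc was 2 or more. Its mean of the endothelial genes Cldn5, Cdh5, Ramp2 and Egfl7 had to be below 2. Cells with both Prg4 and Alox15, genes of serous-cavity macrophages, and cells with 2 or more of the alveolar macrophage genes Marco, Krt79 and Ear1 were left out. Because measured values chose these cells, their C1q levels and their differences from other cells are given as descriptions, with no test.

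The cells came from lungs of p16-FDR mice on the C57BL/6 background, aged 20 to 22 months, and were sorted by FACS for mCherry. The reporter allele carries an FLP recombinase together with a diphtheria toxin receptor joined to mCherry, and every animal of the study carried it. The labels give 1 group with 2 samples, and cells without mCherry were not analysed here. Nothing in the labels states how many animals were pooled into a sample, and the 2 library numbers in the cell names could not be tied to the sample titles. The table was therefore treated as 1 sample, with each library given as a within-batch value. No cell barcode was shared by both libraries.

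C1q is the recognition subunit of the classical complement pathway, assembled from chains A, B and C, and tissue macrophages are its main source. Interstitial macrophages lie in the connective tissue of the lung around vessels, airways and nerves, apart from the alveolar macrophages of the airspace. A pair of poles is commonly described among them. One is marked by Lyve1 and Folr2 and lies near vessels, and the other is marked by MHC class II, through which peptides are shown to helper T cells.

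Library 1 held 116 of the C1q-high macrophages among 1145 cells (10.1%, 8.44 to 12%) and library 2 held 17 among 199 (8.54%, 5.06 to 13.3%). The intervals overlapped. Depth in the macrophages ranged from 2833 to 19584 UMIs per cell (unique molecular identifiers, which count mRNA molecules), with medians of 7174 UMIs and 2267 detected genes. The median was 6986.5 UMIs in library 1 and 8733 in library 2. Values below are rates, meaning a gene's UMIs summed over a class of cells per 10000 UMIs of that class, with exact Poisson 95% intervals in parentheses. Intervals of rates and shares cover counting error only and not the spread between animals. Those of rates also leave out the spread between cells.

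The C1q threshold fell in a sparse range of values. The 5 macrophages closest to it had mean C1q values of 2.17, 2.69, 2.76, 2.86 and 2.91, and the 5 cells just below it had 1.85, 1.68, 1.65, 1.25 and 1.14. The median C1q-high macrophage stood at 4.14 and the highest at 4.80. In all, 177 cells reached the C1q threshold, and the other parts of the definition left out 44 of them, 41 through Prg4 and Alox15, 2 through the endothelial genes and 1 through the alveolar genes. The 3 chains are encoded side by side on chromosome 4 (GRCm38, chr4:136880129-136898803). C1qa was at 71.9 per 10000 (70.1 to 73.7) in library 1 and 93.4 (88.6 to 98.4) in library 2. Single cells ranged from 10.7 to 177 with a median of 75.1.

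Other myeloid cells served as comparison, 102 cells chosen by expression rules. They were 46 serous-cavity-like macrophages with Prg4 and Alox15, 19 alveolar macrophages, and 37 cells high in MHC class II and below the C1q threshold. The median depths were 10686.5, 10348 and 10141 UMIs, deeper than in the C1q-high macrophages. For depth-sensitive shares of cells, the share expected after drawing 2500 UMIs from every cell is given as the thinned share, which left out no cell.

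The label of interstitial macrophage rests on Folr2, Cd163, Ccl8, F13a1 and Cd209f, none of which the definition used. These genes were chosen with earlier results of these data known, so their detection is a description and no independent check of the label. At least 3 of these 5 genes were detected in 86 of the 133 cells, in 0 of the 102 other myeloid cells, in 2 of 611 endothelial cells and in 0 of 147 T cells. All 5 were detected in 42 macrophages, 4 in 33, 3 in 11, 2 in 13, 1 in 9 and none in 25. Most of the cells thus carried at least 3 of the 5 genes, while 25 carried C1q without any of them. Those 25 were not shallow, with a median of 7340 UMIs against 7072.5 in the others, and 23 of them came from library 1.

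Markers of most other cell types were low or at 0 in the C1q-high macrophages, apart from single cells. The definition itself held down Marco, Krt79 and Ear1, and of the other 9 alveolar markers Chil3 and Cidec had no UMI, with a summed rate of 0.998 per 10000. The 8 serous-cavity markers that the definition did not use summed to 3.18. All 10 of that list together came to 233 per 10000 in 1 library 1 macrophage, inside the range of serous-cavity-like cells, whose lowest cell had 115. That cell of 10501 UMIs had 91 UMIs of Prg4 and 99 of Fn1, none of Alox15 and none of the 5 interstitial genes, and entered the class because Alox15 was not detected. The next macrophage was at 53.3, and the 10 markers summed to 4.17 over all macrophages and 1.77 without that cell. Ly6c2, Vcan and Chil3 of the monocyte list were at 0, with a sum of 8.73 for 13 markers. Xcr1 and Itgae of the dendritic cell list were at 0, with a sum of 4.90 for 12 markers. That sum was 16.1 in class II-high C1q-low, 0.214 in serous-cavity-like and 0.231 in alveolar cells. Against all other cells, 5 of 10 dendritic cell markers were at least 2-fold higher (Siglech, Cd209a, Batf3, Ccl22 and Ccl17) and 3 lower. Of 12 monocyte markers 3 were higher (Cd300ld, Ccr2 and Nr4a1) and 7 lower, where all genes had 7.49% higher and 18.1% lower. The neutrophil list summed to 3.17 for the 8 markers in the table, against 1.66 or less in each other myeloid class. Of its 4 markers that passed the filter 2 were higher than in all other cells (Mmp9 and Csf3r) and none was lower. Against other myeloid cells 1 of 4 was higher (Mmp9) and 2 were lower. Cd3e and Cd8a of the T and NK cell list were at 0 (sum 0.929 for the 14 markers in the table), as were Cd79a and Ms4a1 of the B cell list (sum 4.33 for 12 markers). The B cell sum was 1.70 or less in each other myeloid class. Against all other cells Cd4 was higher, while 11 of 12 T and NK cell markers and 12 of 12 B cell markers were lower. Against other myeloid cells Cd4 and Il7r, the 2 T and NK cell markers that passed the filter, were higher, as was Ighm, 1 of 2 B cell markers. All genes there had 8.36% higher and 5.64% lower. The 10 endothelial markers that the definition did not use summed to 0.692. In 5 C1q-high macrophages there were 3 or more markers of an unrelated lineage at 2 or more UMIs each, of the B cell list in 2 of them and of the endothelial, fibroblast and epithelial lists in 1 each. The epithelial one, a library 1 cell, held 6543 of its 19584 UMIs in Scgb1a1, the secretoglobin of club cells, which was 97.0% of all Scgb1a1 UMIs in the class. No other macrophage had more than 7. Without that cell Scgb1a1 was at 2.04 per 10000, against 1.70 in endothelial cells and 3.21 in T cells, so this gene appeared at a low level in unrelated cell types alike.

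**Figure D1:**
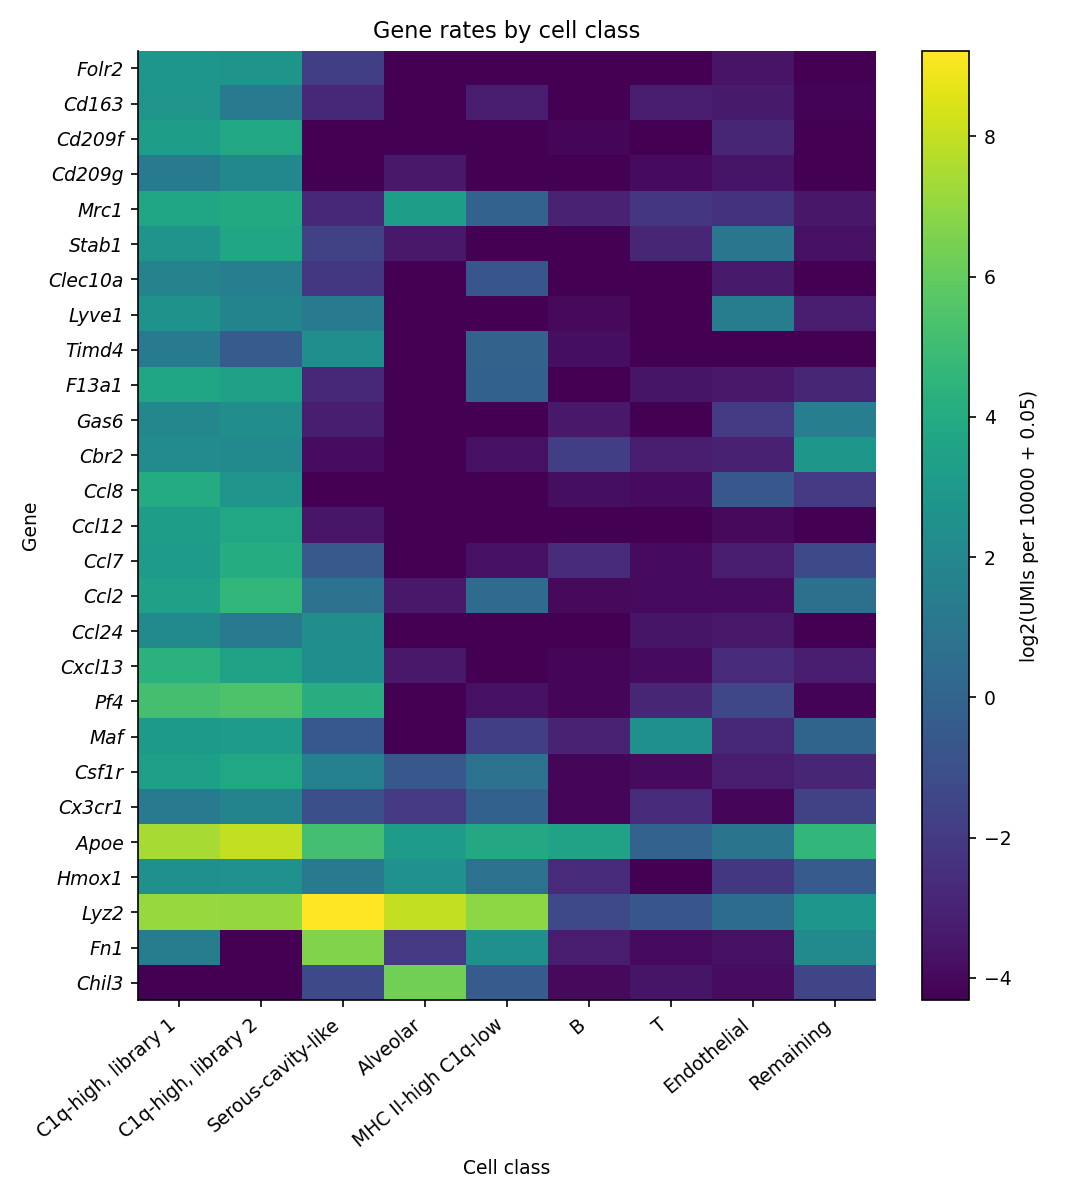
Rates of 27 genes (rows) in C1q-high macrophages of each library and in 7 other cell classes (columns), coloured by log2 of UMIs per 10000 plus 0.05. Folr2, Cd163, Cd209f, Ccl8 and Ccl12 are bright in both C1q-high columns and dark in the other myeloid columns, while Lyz2 is bright in every myeloid column.

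Compared with all 1211 other cells, which were mostly endothelial, 951 of 12702 genes were at least 2-fold higher in the C1q-high macrophages (7.49%) and 2294 were at least 2-fold lower (18.1%), with a median log2 ratio of -0.30. Against the other myeloid cells 731 of 8746 genes were higher (8.36%) and 493 were lower (5.64%), with a median log2 ratio of 0.08. Ratios were taken with 0.05 per 10000 added to both rates. The second comparison is the one followed below, since the first one mostly separates macrophages from endothelium.

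Scavenger and lectin receptors, which take up haemoglobin complexes, glycoproteins and microbial sugars, had the highest list median against the other myeloid cells when the libraries were pooled. Of 22 receptors that passed the filter, 17 were at least 2-fold higher, none was 2-fold lower, and the median log2 ratio was 2.21 beside 0.08 for all genes. Folr2, Cd163 and Cd209f, on which the label rests, are among the 17. Cd209f passed the filter through the macrophages only and could not have been called lower, so the count is a description. Over all genes 8.36% were higher and 5.64% lower. The list was at 2.14 in library 1 alone and at 2.08 in library 2 alone, where the chemokines were higher. Folr2, the folate receptor beta of macrophages, was at 6.81 per 10000 (6.31 to 7.34) in the C1q-high macrophages. It was at 6.87 in library 1 and 6.48 in library 2, a difference within the counting intervals. Folr2 had 12 UMIs in 46 serous-cavity-like cells (0.233 per 10000) and none in the alveolar cells or the class II-high C1q-low cells, where a count of 0 allowed up to 0.139 and 0.0773 per 10000.

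Cd163, the receptor for haemoglobin bound to haptoglobin, was at 6.03 per 10000 (5.56 to 6.53), at 6.66 in library 1 and at 2.45 (1.72 to 3.37) in library 2. It was at 0.0973 in serous-cavity-like and 0.0516 in class II-high C1q-low cells. Both libraries thus had Cd163 above the other myeloid cells, with less in library 2. Mrc1, the mannose receptor, was detected in 124 of 133 cells at 13 per 10000 (12.3 to 13.8). Alveolar macrophages had Mrc1 at 9.29 (8.05 to 10.7), and only the serous-cavity-like (0.0973) and class II-high C1q-low cells (0.902) were far lower. Stab1, the scavenger receptor stabilin-1, was at 7.26 (6.75 to 7.81) against 0.272 or less in each other myeloid class, and endothelial cells also carried it, at 1.93.

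As a share of cells, Folr2 was detected in 69.2% of the macrophages (60.6 to 76.9%). After thinning the share was 59.2%, against 0.379% of endothelial cells (median 5299 UMIs) and 0% of T cells (median 3687 UMIs). Lyve1, a hyaluronan receptor of lymphatic endothelium and of vessel-associated macrophages, was found in 50.4% of the macrophages at 5.70 per 10000 (5.25 to 6.19). Lung endothelial cells carried Lyve1 in 43.9% of cells, at 2.62, so this gene did not set the macrophages apart from endothelium. Timd4, a phosphatidylserine receptor of long-lived resident macrophages, was lower in the C1q-high macrophages (2.02, 1.75 to 2.31) than in serous-cavity-like macrophages (5.37, 4.75 to 6.04).

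The Cd209 family encodes lectins related to human DC-SIGN. Cd209f was at 9.85 per 10000 (9.25 to 10.5) in 70 of 133 macrophages and had no UMI in any of the 102 other myeloid cells, where 0 counts allow up to 0.0268 per 10000. It was detected in 56.0% of macrophages in library 1 and 29.4% in library 2, where 1 cell reached 87.4 per 10000 and moved the rate from 8.98 to 13.5. Cd209g was at 2.61 (2.30 to 2.94), Cd209d at 2.01 (1.74 to 2.30) and Cd209b at 1.39 (1.17 to 1.64). All 58 cells with Cd209g also had Cd209f, and 12 cells had Cd209f alone. The 2 genes are neighbours on chromosome 8 on opposite strands, and the 250 bases before their RefSeq start sites (build GRCm38.p6) share a run of 154 identical bases, printed in capitals because it is the longest stretch common to both members of the co-detected pair.
Cd209f, chr8:4105765-4106014, minus strand: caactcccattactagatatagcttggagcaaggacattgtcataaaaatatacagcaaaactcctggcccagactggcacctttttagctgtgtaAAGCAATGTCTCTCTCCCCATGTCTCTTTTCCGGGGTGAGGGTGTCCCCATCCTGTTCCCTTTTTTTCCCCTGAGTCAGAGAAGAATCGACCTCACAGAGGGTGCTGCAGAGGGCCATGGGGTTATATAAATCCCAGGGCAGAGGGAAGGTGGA
Cd209g, chr8:4134486-4134735, plus strand: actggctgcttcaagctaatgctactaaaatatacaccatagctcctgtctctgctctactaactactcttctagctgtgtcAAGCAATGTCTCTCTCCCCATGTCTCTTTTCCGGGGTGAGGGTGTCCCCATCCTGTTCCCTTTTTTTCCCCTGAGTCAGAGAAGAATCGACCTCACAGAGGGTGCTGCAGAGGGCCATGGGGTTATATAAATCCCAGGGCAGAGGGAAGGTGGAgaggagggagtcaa
The same window of Cd209f shared no run longer than 7 bases with Cd209a, 10 with Cd209b and 8 with Cd209d. Closely related copies can exchange reads in 3' counting, so the separate levels of Cd209f and Cd209g are uncertain.

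The list of CC and CXC chemokines was the other one with a median above 1. Of 19 chemokine genes that passed the filter, 10 were at least 2-fold higher than in other myeloid cells and none was lower (median log2 ratio 1.2). Ccl8, on which the label rests, is among the 10 and passed the filter through the macrophages only. The shares over all genes were 8.36% higher and 5.64% lower. The median was 1.55 in library 1 alone and 2.94 in library 2 alone, which had 17 macrophages and 10 other myeloid cells. Ccl2, Ccl7, Ccl12 and Ccl8, ligands of Ccr2 and related receptors, lie in one cluster on chromosome 11 (GRCm38, chr11:82035571-82116799). Ccl8 was at 14.9 per 10000 (14.1 to 15.7) in 67 macrophages, 16.3 in library 1 and 6.68 in library 2, with no UMI in the other myeloid cells. Ccl12 was at 9.90 (9.30 to 10.5), against 0.0389 in serous-cavity-like cells and no UMI in the alveolar or class II-high C1q-low cells.

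Ccl7 was at 10.0 (9.39 to 10.6) and Ccl2 at 13 (12.3 to 13.7), where the highest other myeloid class, the serous-cavity-like cells, had 0.642 and 1.71. These chemokines were concentrated in a part of the cells. The median macrophage had Ccl8 at 0.639 per 10000 and the highest at 348, and Ccl2 had a median of 1.61 and a highest value of 172. Of the 67 cells with Ccl8, 45 also had Ccl12 (67.2%), compared with 22 of the 66 without Ccl8 (33.3%). Ccl4 and Ccl3, inflammatory chemokines, were at 14.3 (13.6 to 15.1) and 5.96 (5.49 to 6.45), and were higher in library 2 (25.7 and 15.4) than in library 1 (12.3 and 4.30). Single cells weighed on library 2, where Ccl4 was at 14.3 and Ccl3 at 8.21 without the highest cell of each.

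Pf4, platelet factor 4, which many resident macrophages express, was at 38.3 per 10000 (37.1 to 39.5) in 119 macrophages and at 17.0 (15.9 to 18.2) in serous-cavity-like cells. The platelet markers Itga2b and Gp9 had no UMI in the C1q-high macrophages, while Ppbp was detected in library 1. The 8 erythroid and platelet markers measured summed to 0.227 per 10000 in the macrophages. Cxcl13, the B cell attractant, was at 18.7 (17.9 to 19.6) in 58 cells and at 5.35 in serous-cavity-like cells (3.10 without the highest of them), and in library 2 it rested on 1 cell (11.3 with it, 2.27 without). Other chemokines had another order. Ccl24, an eosinophil attractant, was at 4.0 (3.62 to 4.41) beside 5.06 (4.46 to 5.71) in serous-cavity-like cells, where 1 cell carried most of it (2.23 without that cell). Ccl6 was highest in alveolar macrophages, at 45.9 against 9.36.

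**Figure D2:**
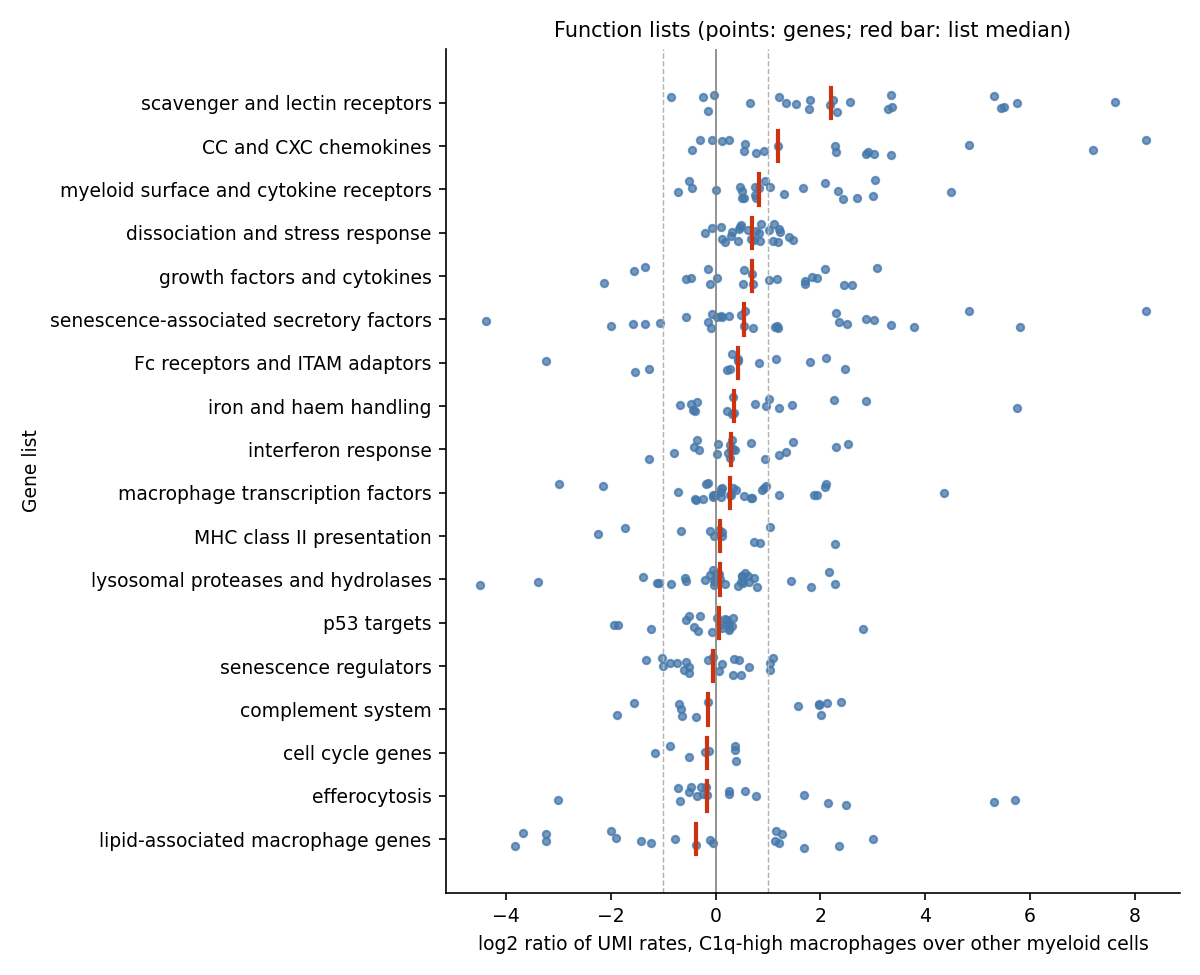
Log2 ratios of UMI rates, C1q-high macrophages over other myeloid cells (x axis), for the genes of 18 function lists (y axis), 1 point per gene, with the list median as a red bar and dashed lines at 2-fold. Scavenger and lectin receptors (median 2.21) and chemokines (1.2) lie furthest right, and lipid-associated macrophage genes (-0.38) furthest left. The last placing did not hold in library 1 alone, where that list was at -0.04.

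Among growth factors and cytokines, 10 of 22 were at least 2-fold higher than in other myeloid cells and 3 were lower (median 0.70). All genes together had 8.36% higher and 5.64% lower. Gas6, a bridge between dying cells and the receptors Axl and Mertk, belonged to the efferocytosis list and was at 3.97 per 10000 (3.59 to 4.38), with 3 UMIs in the 102 other myeloid cells together. The efferocytosis list had 5 of 19 genes higher and 1 lower, with a median of -0.16. Igf1, a survival and growth factor, was at 1.95 (1.68 to 2.24) and exceeded alveolar (0.924) and serous-cavity-like cells (0.214). Bmp2 was at 1.73 (1.48 to 2.01), largely through library 1 (2.00 against 0.198 in library 2). Il10, which restrains inflammation, was found in 14 cells at 0.810 (0.644 to 1.01). Osm and Il6, both of the interleukin 6 family, were at 0.326 and 0.237, and in serous-cavity-like macrophages at 2.59 and 1.32. Il6 was seen in 4 C1q-high macrophages, and 1 of them held most of it (0.130 without that cell).

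Surface receptors include those for macrophage growth factors and chemokines. Of 23 receptors, 10 were at least 2-fold higher than in other myeloid cells and none was lower (median 0.82). Over all genes the shares were 8.36% higher and 5.64% lower. Csf1r, the receptor for macrophage colony-stimulating factor, was detected in 131 of 133 cells at 10.6 per 10000 (10.0 to 11.3), beside 3.0 in serous-cavity-like, 1.65 in class II-high C1q-low and 0.601 in alveolar cells. Cx3cr1, the fractalkine receptor, was at 2.46 (2.16 to 2.79) against 0.876 or less. Gpr34, a lysophospholipid receptor, was at 1.88 (1.62 to 2.16), with no UMI in serous-cavity-like or alveolar cells, and P2ry12, an ADP receptor, was at 0.563 (0.427 to 0.730). Of the Fc receptor list 4 of 13 genes were higher, including Fcgr1 (1.09 against 0.416 or less) and Fcrls (5.04 against 2.47 in class II-high C1q-low cells, 1.5 without the highest of them), and 3 were lower, including Fcgr4 (0.109 against 1.39 in alveolar cells).

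Of 31 transcription factors measured, 6 were at least 2-fold higher and 2 were lower (median 0.28), where all genes had 8.36% higher and 5.64% lower. Maf was at 8.27 per 10000 (7.72 to 8.85) against 0.603 or less. Mef2c was at 4.02 (3.64 to 4.43) against 1.37 or less. Gata6, the factor of cavity macrophages, had 3 UMIs in 133 cells (1.26 per 10000 in serous-cavity-like cells), and Pparg, the factor of alveolar macrophages, had 2 (1.16 in alveolar cells). Both of these factors were thus near the level of 3 counts in the C1q-high macrophages (0.0296 per 10000).

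Complement genes other than C1q were mixed, with 6 of 13 higher, 2 lower and a median of -0.15. All genes had 8.36% higher and 5.64% lower. C3ar1, the receptor for the C3a fragment, was at 3.41 per 10000 (3.06 to 3.79) beside 1.61 in serous-cavity-like cells and 0.185 or less elsewhere. C3 itself was at 3.44, but 1 cell held 145 of its UMIs and the rate without it was 2.03, against 1.25 in serous-cavity-like cells. Itgam, the alpha chain of complement receptor 3, was at 1.65 (1.41 to 1.92), far below the serous-cavity-like cells at 12.5 (11.6 to 13.6). C4b was also below them, at 4.16 (3.77 to 4.58) against 13.9 (12.9 to 15).

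Lipid-handling genes divided by member. Of 19 lipid-associated macrophage genes, 7 were at least 2-fold higher and 8 lower (median -0.38, and -0.04 in library 1 alone). For all genes the shares were 8.36% higher and 5.64% lower. Apoe, the lipoprotein that carries cholesterol out of cells, was at 186 per 10000 (183 to 188) against 35.8, 8.87 and 14.4 in serous-cavity-like, alveolar and class II-high C1q-low cells, and was at 174 in library 1 and 252 in library 2. The alveolar value rested on 1 cell (0.151 without it). Gpnmb, Spp1 and Fabp5, genes of lipid-laden macrophages, were at 0.0296, 0.395 (0.220 without the highest cell) and 0.711, and in alveolar macrophages at 5.54, 4.76 and 7.07. Lpl was at 2.35 (2.06 to 2.67) against 25 in alveolar macrophages. Among lysosomal genes 4 of 32 were higher and 5 lower, with a median of 0.08 that equalled the median of all genes. Ctsb and Ctsc, cathepsins B and C, were higher at 27.1 and 13.6 (13.6 and 5.22 or less elsewhere), while Ctsd was at 6.96 against 64.3 in alveolar macrophages.

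Iron genes had 6 of 17 members higher and none lower (median 0.36), including Cp, the ferroxidase ceruloplasmin, at 1.5 per 10000 (1.27 to 1.76) against 0.350 or less. Hmox1, which breaks down haem, was at 5.49 (5.05 to 5.97), within the counting interval of alveolar macrophages (5.78, 4.81 to 6.88, and 3.30 without the highest alveolar cell). Slc40a1, the iron exporter, was scarce, with UMIs in 7 of 133 cells. The interferon list had 5 of 21 higher and 1 lower (median 0.29), where all genes had 8.36% higher and 5.64% lower. The stress and dissociation list, genes that respond to tissue digestion and sorting, had 8 of 26 higher and none lower (median 0.70). Fos was at 23.5 (22.6 to 24.5) against 11.2 or less, and Hspa1a at 20.3 (19.4 to 21.2), with 22.6 in library 1 and 7.14 in library 2 (3.74 without its highest cell). Fos and Hspa1a moved with the same contrast as the receptors and chemokines above, and their part in those levels was not tested.

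The libraries differed in several genes within the C1q-high macrophages, of which Retnla and Gm42418 were chosen after their values were seen. Retnla, a resistin-like protein of alternatively activated macrophages, was at 46.2 per 10000 (44.8 to 47.7) in library 1, from 37 of 116 cells, and at 0.198 (0.0409 to 0.580) in library 2, from 1 of 17. Gm42418, a locus that overlaps ribosomal RNA repeats, was at 252 in library 1 and 30.0 in library 2. Ms4a7 was at 3.46 and 10.4, and Il1b, interleukin 1 beta, at 4.31 and 23.1, where 1 library 2 cell held 211 UMIs and the rate without it was 10.1. Sample, sequencing run and animal cannot be told apart in these differences.

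MHC class II varied widely among the C1q-high macrophages, and a score of the mean natural-log value of H2-Aa, H2-Ab1 and H2-Eb1 was used to order them. Of 133 cells, 13 had a score of 0, 31 were below 1, 20 lay from 1 to below 3.5 and 82 were at 3.5 or more. The median was 4.06 and the highest 5.69. Split at the median, 67 cells formed the class II-high side and 66 the class II-low side, with median depths of 7311 and 7029 UMIs, and 12 cells lay within 0.25 of the cut. The sides are ranges of one score and not cell types. For a finer view the cells were also divided by score into 4 groups of 33 or 34 cells, numbered from the lowest scores (group 1, 0.00 to 1.45) to the highest (group 4, 4.82 to 5.69). Library 2 gave 7 cells to the high side and 10 to the low side. Of 8370 genes detected in at least 5% of the macrophages, 309 were at least 2-fold higher in the high side (3.69%) and 810 lower (9.68%), with a median log2 ratio of -0.23.

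Genes of class II presentation that the score did not use were higher toward the upper score groups. Cd74, the invariant chain, was at 5.85, 89.9, 267 and 468 per 10000 from group 1 to group 4. Ciita, the co-activator on which class II transcription depends, had no UMI in group 1 and was at 0.255, 0.910 and 1.40 in the others. H2-DMb1, a chain of the peptide-loading chaperone H2-DM, was at 0.351, 1.66, 4.32 and 8.22. In all, 6 of 12 genes of the presentation list were at least 2-fold higher in the high side, and 1, the protease gene Lgmn, was lower (5.66 against 12.1). Among all genes in this split 3.69% were higher and 9.68% lower.

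Class II promoters share a short array of elements, and the one nearest the gene is the Y box, an inverted CCAAT motif bound by NF-Y. CIITA does not bind DNA itself and is held by the proteins on this array. The 250 bases before the start site are printed for H2-Aa and H2-Eb1, which the score itself used, and for H2-DMb1, which it did not use, from RefSeq (GRCm38.p6), with the Y-box letters GATTGG, or their reverse complement CCAATC, in capitals.
H2-Aa, chr17:34287824-34288073, minus strand: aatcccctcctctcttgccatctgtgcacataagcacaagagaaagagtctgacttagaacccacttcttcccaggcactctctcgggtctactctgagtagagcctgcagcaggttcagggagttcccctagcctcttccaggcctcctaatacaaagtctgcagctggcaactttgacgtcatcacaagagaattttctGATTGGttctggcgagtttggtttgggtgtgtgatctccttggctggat
H2-Eb1, chr17:34305617-34305866, plus strand: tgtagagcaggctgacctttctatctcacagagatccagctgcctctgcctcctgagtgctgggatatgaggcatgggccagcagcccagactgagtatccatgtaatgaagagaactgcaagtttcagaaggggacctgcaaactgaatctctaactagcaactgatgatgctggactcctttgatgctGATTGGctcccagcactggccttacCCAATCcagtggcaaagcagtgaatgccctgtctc
H2-DMb1, chr17:34152941-34153190, plus strand: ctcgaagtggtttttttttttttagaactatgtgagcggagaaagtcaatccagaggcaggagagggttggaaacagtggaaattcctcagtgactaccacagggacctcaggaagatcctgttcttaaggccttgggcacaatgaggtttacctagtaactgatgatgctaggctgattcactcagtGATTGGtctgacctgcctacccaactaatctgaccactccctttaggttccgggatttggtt
The motif began 49 bases before the start of H2-Aa, 60 and 35 bases before that of H2-Eb1 and 62 bases before that of H2-DMb1. Of the 32851 promoters in the table, 14.6% held these letters on either strand of the window, so a match is common and is given as a description.

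Most scavenger and lectin receptors ran the opposite way, among them Folr2 and Lyve1, the genes named above for the vessel-associated pole. Position in the tissue was not measured. Of 22 scavenger and lectin receptors 14 were at least 2-fold lower in the class II-high side and 1 was higher (median -1.38). Over all genes 9.68% were lower and 3.69% higher. Folr2 was at 12.2, 9.02, 5.34 and 0.857 per 10000 from group 1 to group 4. Lyve1 was at 12.8, 6.68, 3.34 and 0.156, and Timd4 at 4.33, 2.47, 1.17 and 0.156. The intervals of groups 1 and 4 did not overlap for any of these 3 genes. For Timd4 the value of group 2 was 0.987 without its highest cell.

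Cd163 was at 9.55, 9.06, 4.55 and 1.25, and F13a1, the A chain of clotting factor XIII, at 21.5, 17.3, 7.66 and 2.07. Vsig4, a complement receptor of tissue-resident macrophages, was at 6.59, 1.06, 0.606 and 0, with UMIs in 15, 5, 2 and 0 cells, and the values of groups 2 and 3 were 0.359 and 0.155 without the highest cell of each. Fcna, ficolin A, was at 23.9, 11.8, 3.41 and 0.234 (6.91 and 1.86 in groups 2 and 3 without the highest cell of each), and C4b at 10.9, 3.91, 1.82 and 0.0390. Ednrb, the endothelin receptor B, was at 3.48 in the low side and 0.114 in the high side. The transcription factor Maf was at 11.9 in group 1 and 2.88 in group 4. The same direction held in each library for Folr2 (11 in the low and 3.30 in the high side of library 1, 9.75 and 1.91 in library 2) and for Lyve1 (11 and 1.88 in library 1, 4.99 and 1.11 in library 2).

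**Figure D3:**
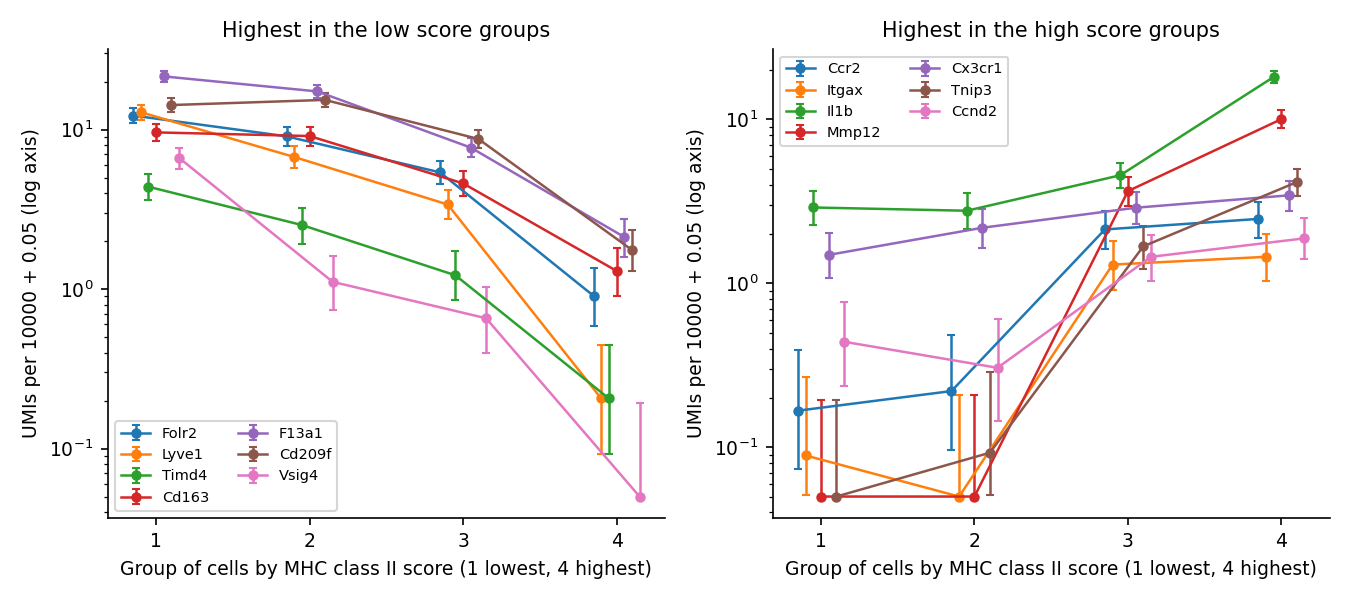
Rates of 7 genes in each panel (UMIs per 10000 plus 0.05, log axis) in 4 groups of C1q-high macrophages ordered by the MHC class II score, 33 or 34 cells each (x axis), with exact Poisson 95% intervals. On the left Folr2 goes from 12.2 to 0.857, and on the right Mmp12 goes from no UMI in groups 1 and 2 to 3.60 and 9.98.

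Some single genes were higher at the class II-high end, and marker lists of other myeloid cells were mixed. Of the 6 dendritic cell markers that passed the filter 2 were at least 2-fold higher on the class II-high side (Ccl22 and Batf3) and 2 were lower (median 0.08), and of 4 monocyte markers 2 were higher (Ccr2 and S100a4) and none was lower (median 0.57), where all genes had 3.69% higher and 9.68% lower. Ccr2, the receptor with which monocytes follow Ccl2, was at 0.117 and 0.170 per 10000 in groups 1 and 2 and at 2.08 and 2.42 in groups 3 and 4. Itgax, which encodes CD11c, was at 0.0390, 0, 1.25 and 1.40. Mmp12, macrophage elastase, had no UMI in groups 1 and 2 and was at 3.60 and 9.98 in groups 3 and 4, where group 3 rested on 1 of its 6 cells with a UMI (0.972 without it). Il1b was at 2.85, 2.72, 4.51 and 18.1, with UMIs in 2, 5, 12 and 14 cells. Without the highest cell of each group Il1b was at 0.242, 1.24, 3.91 and 10.5, each above the group before.

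Tnip3, an inhibitor of NF-kappa B signalling, Dcstamp, a fusion receptor of dendritic cells and osteoclasts, and Runx3, a transcription factor, were among the genes furthest up in the high side. Tnip3 had no UMI in group 1 and was at 4.09 in group 4 (2.40 without the highest cell), and Dcstamp was at 1.54 in the high side with no UMI in the low side. Bcl2a1a and Bcl2a1d also led, but they are near-identical copies whose reads cannot be assigned with certainty. In library 2 the high side held 7 cells, in which Ccr2 was at 0.159 against 0.113 in the low side, so the Ccr2 difference was measured in library 1 (2.53 against 0.126). Mmp12 in library 2 came from 2 cells and rested on 1 of them (0.406 without it, 15.1 with it).

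C1qa did not follow the score, and the summed rates of Ccl8 and Ccl12 had no steady order along it. C1qa was at 79.0, 74.8, 67.0 and 79.8 per 10000 across the groups. Ccl8 was at 13.2, 16.5, 14.5 and 15.5, although the cells with a UMI went from 21 to 21, 16 and 9, and group 4 had 5.22 without its highest cell. The Spearman coefficient of Ccl8 with the score was -0.26 over 133 cells, so its detection fell along the score while its summed rate did not. Ccl12 was at 7.25, 10.6, 5.34 and 16.6, and group 1 had 3.13 without its highest cell. Among 18 chemokines 3 were higher and 2 lower in the high side (median 0.02), where all genes had 3.69% higher and 9.68% lower. The Fc receptor list had none of 14 genes past 2-fold in either direction (median -0.01). C1qa had a Spearman coefficient of 0.00 with the score over 133 cells, and the UMIs per cell one of -0.00.

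Spearman coefficients with the score, over 133 cells that share libraries and differ in depth, were -0.67 for Folr2, -0.64 for Lyve1, -0.61 for F13a1 and -0.51 for Cd163. They were 0.43 for Itgax, 0.39 for Ccr2, 0.39 for Il1b and 0.37 for Mmp12. Within library 1 Folr2 was at -0.69 and within library 2 at -0.57 (17 cells). These coefficients describe the cells and carry no test.

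**Figure D4:**
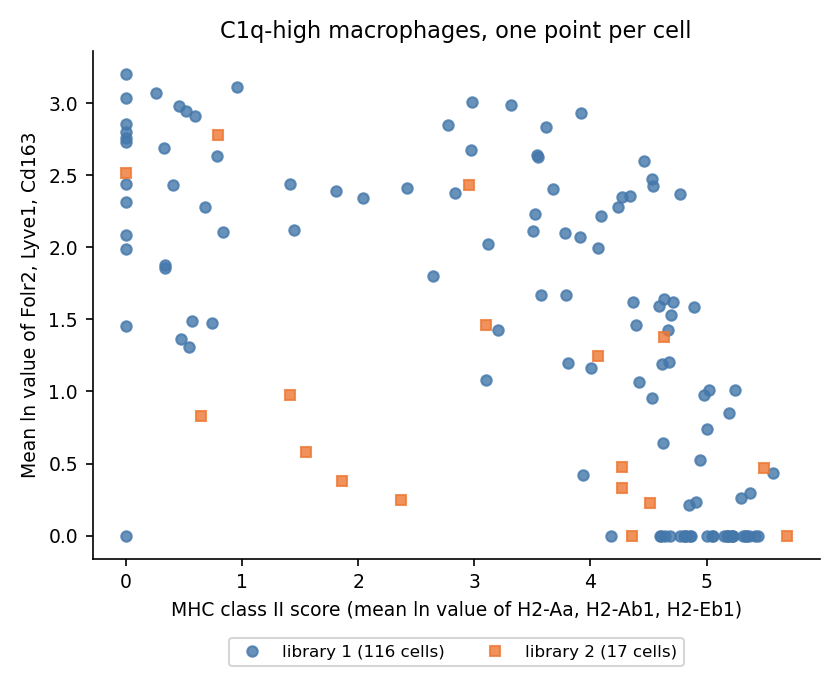
MHC class II score (x axis, mean natural-log value of H2-Aa, H2-Ab1 and H2-Eb1) against the mean natural-log value of Folr2, Lyve1 and Cd163 (y axis), 1 point per C1q-high macrophage, circles for library 1 (116 cells) and squares for library 2 (17 cells). Cells are sparse in the middle, with 31 below a score of 1, 20 from 1 to below 3.5 and 82 at 3.5 or more. A row of cells without any of the 3 receptors lies above a score of 4.

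Detection in single cells gave the same division. Mmp12 was found in 0 of the 92 cells with Folr2 and in 16 of the 41 without it (39.0%). Ccr2 was found in 13% of the cells with Folr2 and in 51.2% of those without, and Il1b in 9.78% and 58.5%. Lyve1 was found in 70.7% of the cells with Folr2 and in 4.88% of those without. The depth of both groups was alike, with medians of 7072.5 and 7311 UMIs.

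The 25 cells without any of the 5 interstitial genes lay at the class II-high end, 16 in score group 4, 8 in group 3, 0 in group 2 and 1 in group 1. They had Mmp12 in 14 cells at 13.9 per 10000 (12.3 to 15.6), Il1b in 15 at 19.4 (17.6 to 21.4, and 10.1 without the highest cell), Ccr2 in 15 at 3.59 (2.83 to 4.49) and Itgax in 15 at 2.31 (1.71 to 3.06). They had C1qa at 59.2 (55.9 to 62.5) and Csf1r in all 25 cells at 5.24 (4.31 to 6.31). The class II-high C1q-low cells, by comparison, had Csf1r at 1.65 and Mmp12 at 1.80 (0.463 without the highest cell). Flt3, the growth-factor receptor of dendritic cells, was found in 1 of the 25 cells (4.0%) and in 11 of the 37 class II-high C1q-low cells (29.7%). Over all C1q-high macrophages Csf1r was at 10.6. C1q in these 25 cells and the absence of the 5 genes follow from how the cells were chosen.

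Cdkn2a, which encodes p16 and from whose locus the reporter takes its name, was detected in few C1q-high macrophages. Its rate was 0.553 per 10000 (0.418 to 0.719), and 31 of the 133 cells had a UMI (23.3%, 16.4 to 31.4%). Among these 31 cells, 22 had 1 UMI, 5 had 2, 3 had 3 and 1 had 15. The cell with 15 UMIs was a library 1 cell of 17058 UMIs with 8 UMIs each of Folr2 and Prg4, and the rate without it was 0.412. Library 1 was at 0.604 (0.451 to 0.792) and library 2 at 0.265 (0.0721 to 0.677), intervals that overlapped.

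Endothelial cells had Cdkn2a at 2.57 per 10000 (2.41 to 2.74) and serous-cavity-like macrophages at 1.58 (1.25 to 1.96), both above the C1q-high macrophages. Alveolar macrophages were at 0.277 (0.102 to 0.603), class II-high C1q-low cells at 0.0773 (0.0159 to 0.226) and T cells at 0.204 (0.105 to 0.355). After thinning, 10.2% of the C1q-high macrophages had a UMI, compared with 35.8% of endothelial cells, 19.6% of serous-cavity-like, 3.78% of alveolar, 1.26% of class II-high C1q-low and 4.42% of T cells. In order of rate, the C1q-high macrophages stood below the serous-cavity-like cells without overlap of the intervals and overlapped with the alveolar macrophages. The mCherry sequence itself was seen in 3 of 133 macrophages (2.26%, 0.468 to 6.45%), 2 of them with a Cdkn2a UMI, and in 64 of 611 endothelial cells (10.5%, 8.16 to 13.2%). For T cells, which were sorted through the same gate, the share was 1.36% (0.165 to 4.83%), an interval that overlapped with that of the macrophages. The T cells were shallower, with a median of 3687 UMIs against 7174. Cells without mCherry were not analysed, so a background share was not measured.

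Cdkn2b, the neighbouring inhibitor gene encoding p15, was at 0.0889 per 10000 (0.0407 to 0.169), below endothelial cells at 2.83 and near T cells at 0.153 (0.0698 to 0.290). Cdkn1a, which encodes p21, was at 3.37 (3.02 to 3.75) in 69 of 133 cells, beside 4.24 in serous-cavity-like cells, 2.73 in class II-high C1q-low cells and 11 in alveolar macrophages. It was found in 51.6% of the cells with Cdkn2a and in 52.0% of those without. Mki67, a gene of dividing cells, had a UMI in 4 cells (3.01%). The list of senescence regulators had 3 of 21 genes at least 2-fold higher than in other myeloid cells and 3 lower (median -0.05), where all genes had 8.36% higher and 5.64% lower. In the same comparison p53 targets had 1 of 20 higher and 3 lower (median 0.06), and cell cycle genes had 0 of 8 higher and 1 lower (median -0.16).

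Secretory factors tied to senescence had 13 of 30 genes higher and 5 lower (median 0.55), where all genes had 8.36% higher and 5.64% lower. The higher genes included the chemokines described above, Ccl8, Ccl7, Ccl2, Ccl4 and Ccl3, and also Cxcl10, at 3.14 per 10000 (2.01 without the highest cell), and Cxcl16, at 3.28 (2.94 to 3.65). Cxcl16 and Plaur were chosen after their values were seen. Mmp9, gelatinase B, was at 2.76 per 10000 (2.44 to 3.10) in 46 macrophages, with no UMI in the other myeloid cells. Igfbp4 was at 4.09 (3.71 to 4.50) against 0.486 or less. Il6, Plaur, Spp1 and Fn1 were among the lower ones, and Fn1 was at 2.25 (1.97 to 2.57, and 1.29 without the highest cell) against 99.4 in serous-cavity-like cells.

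Along the class II score Cdkn2a was at 1.09 per 10000 (0.725 to 1.58) in group 1, in 13 cells, and at 0.468, 0.341 and 0.312 in the others, in 6 cells each. Without the cell with 15 UMIs group 1 was at 0.543, within the intervals of the others. Cdkn1a was at 2.61, 4.25, 3.75 and 2.92 and showed no order.

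**Figure D5:**
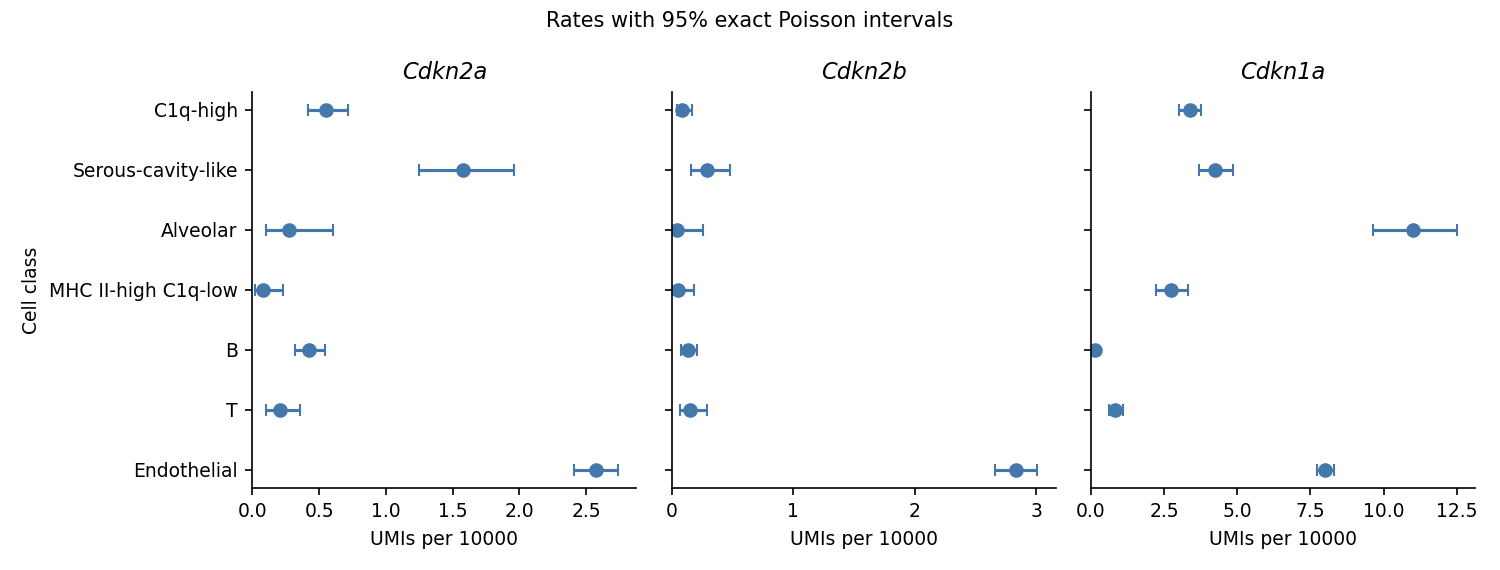
Rates of Cdkn2a, Cdkn2b and Cdkn1a (UMIs per 10000, x axes) in C1q-high macrophages and 6 other cell classes (y axis), with exact Poisson 95% intervals. For Cdkn2a the C1q-high macrophages (0.553) lie between the alveolar macrophages (0.277) and the serous-cavity-like macrophages (1.58).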

How the data were processed

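Single cells were measured by droplet 3' RNA sequencing (10x Genomics Chromium, v3 chemistry) after FACS sorting, per the labels' protocols. Cell Ranger 3.0.2 and mm10 are named in the submitters' processing notes. No source used here names the cell filters, the annotation or any doublet removal. The deposited table of 15526 genes held natural log values: the authors took each gene's share of a cell's UMIs times 10000, plus 1, as the values show, since they summed back to 10000 in every cell. Whole UMIs were recovered (largest deviation 1.78e-10).

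The members and the 18 function and 14 marker lists were chosen with earlier results of these data known. Comparison classes used fixed expression rules. No doublets were removed. Genes were compared when detected in at least 1% of all cells, or 5% of the cells compared for other myeloid cells and for the sides of the class II score, with 0.05 per 10000 added, which is above the 0.0268 that 3 counts make in the other myeloid cells. Ratios of 2 or more were called, and genes used by a rule were left out of list counts. The label genes Folr2, Cd163, Ccl8, F13a1 and Cd209f were kept in them. The filters pooled the cells compared, so a gene found on 1 side only could pass and be called for that side alone. Named genes were the rule and marker genes, Cdkn2a, Cdkn2b, Cdkn1a, mCherry, Il6, Il1b and Mki67, up to 6 genes per list with the largest ratio, and the 15 highest and lowest against myeloid cells and 10 between the sides of the score. Retnla, Gm42418, Cxcl16 and Plaur were named after their values were seen. Numpy 2.4.6, scipy 1.17.1 and pandas 2.3.3 were used, and steps were tested on simulated data. Positions come from GENCODE M21. Alternatives changed the C1q threshold, library, pseudocount, filter, weighting, score and split, and left out cells of mixed lineage. Leaving out the Scgb1a1-rich cell, the Prg4-rich cell, and the cells without the 5 interstitial genes, was added after seeing the data. Results on some genes are not reported here.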

Additional observations from a re-analysis of the deposited data

How the results depend on the processing

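No paired analysis was possible because both samples belong to 1 group and the library numbers in the cell names could not be matched to the replicate numbers of the samples; values within each library are given instead. With library 2 alone (17 macrophages against 10 other myeloid cells) 1560 genes were at least 2-fold higher than in all other cells, 1903 higher and 1436 lower than in other myeloid cells, 6 lists instead of 2 had medians of 1 or more, and Cdkn2a was at 0.265 per 10000. With 0.01 per 10000 added, 3669 genes were lower than in all other cells. With 0.5 added, 374 were higher and 523 lower than in all other cells, 196 higher and 127 lower than in other myeloid cells, 58 higher and 69 lower in the class II-high side, and 1 list, scavenger and lectin receptors at 1.49, had a median of 1 or more. Filters at 10% of cells left 512 higher and 1331 lower against all other cells, and at 25% of macrophages 67 higher and 192 lower in the class II-high side, where fewer genes were tested. Comparing only cells from both ends of the score, without the middle, gave 1402 lower genes. Without its top cell Cdkn2a was at 0.412.

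Of 216 list medians recomputed, 205 moved by less than 1.5 times, and 9 of the 11 others were in library 2 alone. In 12 cases a median took the other sign, all for lists within 0.29 of 0, and 6 of them were in library 2 alone, where the complement list was at 1.12 instead of -0.15. The leading list changed in library 2 alone, to chemokines at 2.94 with scavenger and lectin receptors at 2.08. Without the macrophage high in serous-cavity markers 735 genes were higher and 510 lower than in other myeloid cells. Without the 25 macrophages lacking all 5 interstitial genes the lipid-associated list was at -1.05 instead of -0.38. The share of C1q-high macrophages was 10.1% at a C1q threshold of 1.5 and 9.82% at 2.5. The class II sides of library 2 alone were not run, with fewer than 10 cells on one side. Leaving out cells of mixed lineage screened only the C1q-high macrophages and other myeloid cells. Depth limits genes near 3 counts per class, 0.0296 per 10000 in the macrophages, and both libraries stand for an unknown number of animals.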
